A study of Mus musculus with 6 samples.

Results

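The Polycomb repressive complex genes described here are 9 rows of the deposited count table, chosen by gene symbol: Ezh1, Ezh2, Suz12, Eed and Jarid2 of Polycomb repressive complex 2 (PRC2), and Rnf2, Bmi1, Cbx2 and Cbx7 of Polycomb repressive complex 1 (PRC1). All 9 were found among the 40413 genes of the table, and all 9 were among the 13705 genes with enough counts to be tested. RNA was sequenced from N2A-A5 cells, a derivative of the mouse neuroblastoma line Neuro-2a that the labels call acceptor cells, in 3 libraries at 96 h of differentiation and 3 libraries at 0 h. The 96 h cells were kept in medium with 1% fetal bovine serum and 10 µM retinoic acid, without blasticidin, and the undifferentiated 0 h cells were grown in 10% fetal bovine serum with 10 µg/mL blasticidin and no retinoic acid. The labels name a single line and no further genotype, and the 3 libraries of a group are described as biological replicates. Retinoic acid, serum, blasticidin and time in culture differ together between the groups and cannot be told apart.

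Polycomb complexes keep developmental genes silent by modifying histones. In PRC2, the methyltransferase Ezh2, or its close relative Ezh1, works with Suz12 and Eed to methylate lysine 27 of histone H3, and Jarid2 helps to bring the complex to its targets. In canonical PRC1, a CBX protein such as Cbx2 or Cbx7 binds that methyl mark, while Rnf2 (also called Ring1b), with a PCGF partner such as Bmi1, attaches ubiquitin to histone H2A. In many tissues Ezh2 is known as the form of dividing progenitors and Ezh1 as the form of resting, differentiated cells, neurons included.

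The libraries held 16.8 to 19.0 M counts at 96 h and 17.6 to 20.9 M counts at 0 h, and a member had between 231 and 4226 counts in a library. The predicted gene Gm26917 took 28.7 to 31.7% of counts at 96 h and 18.7 to 22.7% at 0 h. Levels below are counts per 1000000 (CPM) on library sizes scaled by TMM, which assumes that most genes do not differ between libraries. Here 57.4% of genes tested were called as changed, so values under other scalings are also given. Of 9 sympathetic neuroblastoma markers, such as Hand2 and Dbh, all 9 were tested and 7 were lower at 96 h. Among all genes tested, 28.8% were lower and 28.7% higher. The summed level of the markers was 698 to 732 CPM at 96 h and 1115 to 1163 CPM at 0 h. Th stayed at or below 1.11 CPM in every library. Summed markers of fibroblasts (6 genes) reached 10.5 to 12.2 CPM at 96 h and 4.28 to 4.77 CPM at 0 h, with Col3a1 and Lum at 0 in all libraries. Of the 3 fibroblast markers tested, 2 were higher at 96 h and 0 lower. Pdgfra averaged 7.96 CPM at 96 h and 2.58 CPM at 0 h (log2 fold change 1.62 ± 0.21), and Dcn averaged 2.55 CPM at 96 h and 1.28 CPM at 0 h (0.99 ± 0.33). Those of macrophages (5 genes, Aif1 at 0) stayed at or below 0.334 CPM, of endothelium (4 genes) at or below 2.46 CPM and of glia (5 genes, Aqp4 at 0) at or below 8.78 CPM. In such bulk libraries, fewer cells of a kind and less RNA per cell cannot be told apart.

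At 96 h the core of PRC2 was lower than at 0 h, while most PRC1 members differed little between the groups. Suz12, Ezh2 and Eed of PRC2 and Bmi1 of PRC1 fell, Ezh1 rose by a small margin, and Jarid2, Rnf2, Cbx2 and Cbx7 did not pass the test (edgeR's quasi-likelihood test, Benjamini-Hochberg adjusted p under 0.05). These are 4 members lower and 1 higher, against a background in which 28.8% of all genes tested were lower, 28.7% higher and 57.4% changed either way. The share of members that passed is therefore close to that of all genes, and the sizes of the individual changes carry the description. For 5 of the 9 members every library of 1 group lay above every library of the other, against 64.1% of all genes tested. The median log2 fold change was 0.01 over the members and 0.03 over all genes tested. A log2 fold change as low as that of Suz12 or lower was found in 4.5% of genes tested, and one as low as that of Ezh2 or lower in 7.76%.

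**Figure D1:**
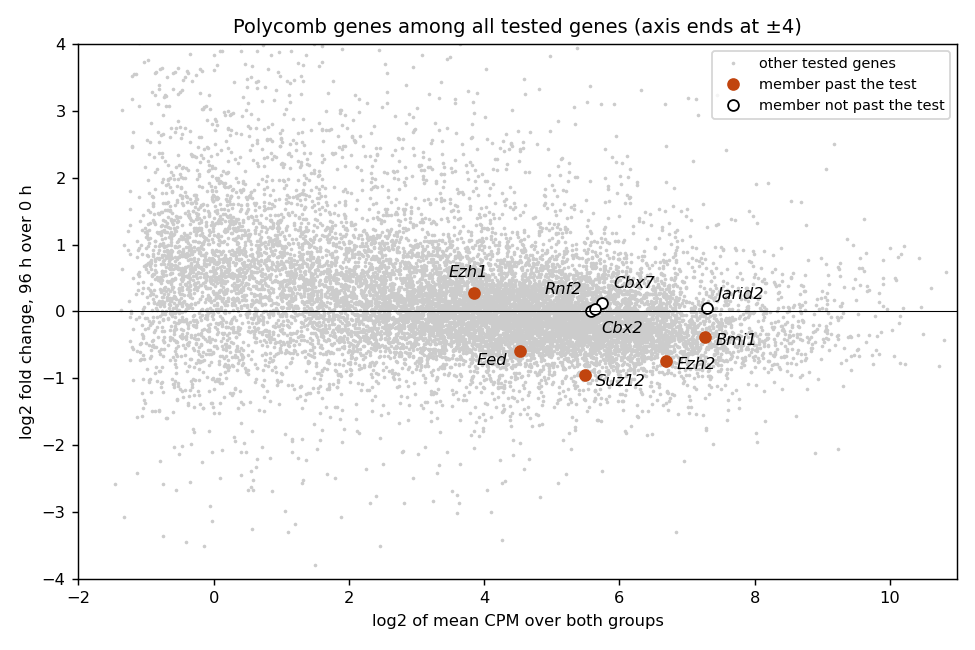
Log2 fold change (96 h over 0 h, vertical axis, cropped at 4 in either direction) against the log2 of the mean CPM over both groups (horizontal axis) for all genes tested, with the 9 Polycomb genes marked. Suz12 (-0.95) and Ezh2 (-0.75) lie in the lower part of the cloud, Ezh1 (0.27) a little above 0, and the open circles of Jarid2, Rnf2, Cbx2 and Cbx7 close to 0.

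Ezh2, the main methyltransferase of PRC2, was at 73.3, 77.9 and 80.3 CPM in the 96 h libraries and at 128, 128 and 133 CPM in the 0 h libraries. Every 96 h library lay far below every 0 h library. Ezh2 averaged 77.2 ± 3.5 CPM at 96 h and 130 ± 2.9 CPM at 0 h (mean ± SD, n = 3 each, as for all means here), a log2 fold change of -0.75 ± 0.05 (SE, edgeR adjusted p = 4.21e-08). By the fitted fold, it fell by 40.4%. Ezh2 estimates were not whole numbers in any of the 6 libraries, as happens when reads are split with other sequences. In the GRCm38 annotation the gene overlaps a processed pseudogene and a noncoding gene on the opposite strand. Such overlap did not go with estimates that were not whole among the members. Suz12, Eed, Jarid2, Rnf2 and Cbx7 also overlap other genes but had whole estimates, and Bmi1, not whole either, overlaps none.

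Ezh1, the alternative methyltransferase, was at 16.2, 16.7 and 14.4 CPM at 96 h and at 12.9, 14.1 and 12.1 CPM at 0 h. The groups did not overlap, but the lowest 96 h library and the highest 0 h library nearly touched. The log2 fold change was 0.27 ± 0.11 (SE, edgeR adjusted p = 0.0413), 21.0% more. The test was not passed with DESeq2 (adjusted p = 0.0844), with limma-voom (adjusted p = 0.0523), with scaling by library size only (log2 fold change 0.02, adjusted p = 0.895) or without the filter on low counts (adjusted p = 0.144). Nor was it passed when a library was omitted from the edgeR fit, namely 96 h replicate 1 (adjusted p = 0.127) or replicate 2 (adjusted p = 0.143), or 0 h replicate 1 (adjusted p = 0.0979) or replicate 3 (adjusted p = 0.122).

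The ratio of Ezh1 to Ezh2 within a library does not depend on the scaling between libraries. Its log2 value was -2.17, -2.21 and -2.47 at 96 h and -3.30, -3.18 and -3.45 at 0 h. All 96 h libraries lay above all 0 h libraries, and the ratio was 2.03-fold higher at 96 h (log2 difference 1.02). With 3 libraries against 3, the exact two-sided permutation p was 0.1, the smallest possible (0.25 adjusted over the 5 ratios compared). Each ratio level also carries the lengths of both RNAs, so only its difference between groups is read.

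**Figure D2:**
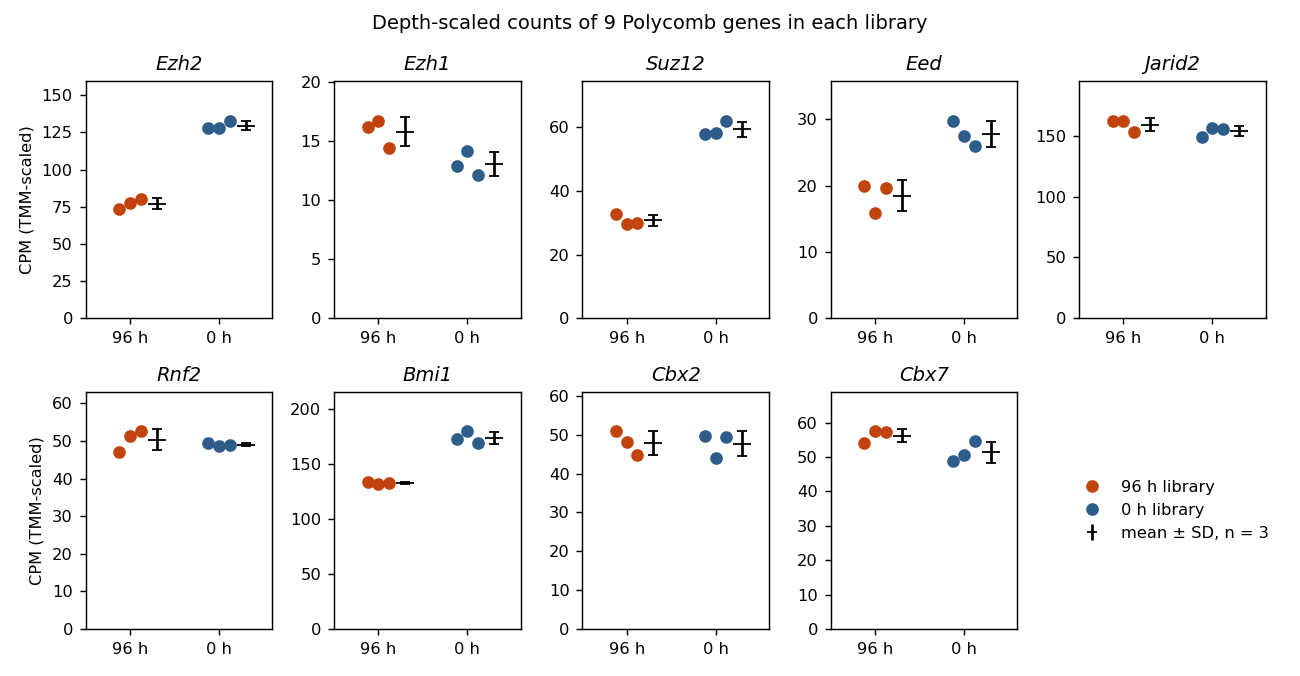
CPM of each of the 9 Polycomb genes (vertical axes, from 0) in the 96 h and 0 h libraries, with 1 point per library and the mean ± SD beside the points. Ezh2, Suz12, Eed and Bmi1 are lower in all 96 h libraries than in any 0 h library, Ezh1 is slightly higher, and the points of Jarid2, Rnf2, Cbx2 and Cbx7 overlap.

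Suz12, the scaffold subunit on which PRC2 is assembled, had the largest change of the 9 members. It was at 32.8, 29.5 and 29.8 CPM at 96 h and at 57.8, 58.1 and 62.1 CPM at 0 h. The groups were well apart, with averages of 30.7 ± 1.8 CPM at 96 h and 59.3 ± 2.4 CPM at 0 h, a log2 fold change of -0.95 ± 0.07 (SE, edgeR adjusted p = 4.16e-08). By the fitted fold, it fell by 48.3%.

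Eed, the subunit that binds the finished methyl mark and stimulates the enzyme, was at 19.98, 15.84 and 19.65 CPM at 96 h and at 29.80, 27.47 and 25.96 CPM at 0 h. Every 96 h library lay below the lowest 0 h library. Its log2 fold change was -0.59 ± 0.10 (SE, edgeR adjusted p = 1.70e-04), and it fell by 33.4%. The histone chaperones Rbbp4 and Rbbp7, of which PRC2 holds a copy and which also serve several other chromatin complexes, fell by a like amount. Rbbp4 averaged 112 ± 3.2 CPM at 96 h and 192 ± 3.2 CPM at 0 h (log2 fold change -0.79 ± 0.05), and Rbbp7 averaged 247 ± 4.3 CPM at 96 h and 386 ± 18 CPM at 0 h (-0.64 ± 0.05).

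Jarid2, a cofactor that helps PRC2 to reach its targets, stood apart from the core. It was at 162, 163 and 153 CPM at 96 h and at 149, 157 and 155 CPM at 0 h, and the libraries of the groups overlapped. Its log2 fold change was 0.05, with a 95% interval of -0.05 to 0.15 (edgeR adjusted p = 0.379). With library size only, the value turned to -0.20 (adjusted p = 0.00818), and with upper-quartile factors it was 0.13 (adjusted p = 0.0317).

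The sequence just before the annotated start was read from RefSeq (GRCm38.p6, an earlier build than the mm39 named for the counts) for the 3 PRC2 core members that fell and for Ezh1, which did not fall, to show where letters known as E2F sites lie. E2F factors switch on genes of DNA replication, and in human fibroblasts EZH2 and EED are known E2F targets. The 4 spellings TTTCCCGC, TTTCGCGC, TTTGCCGC and TTTGGCGC were searched on both strands, from 250 bases before to 50 bases after each start, a choice made after the fold changes were known. In the lines below, matches are in capitals, each line runs 5′ to 3′ on the gene's own strand and ends 20 bases after the start. The lines begin 150 bases before the start, and 250 bases before it for Suz12, whose match lies further away.
Ezh2, chr6:47595011-47595180, minus strand: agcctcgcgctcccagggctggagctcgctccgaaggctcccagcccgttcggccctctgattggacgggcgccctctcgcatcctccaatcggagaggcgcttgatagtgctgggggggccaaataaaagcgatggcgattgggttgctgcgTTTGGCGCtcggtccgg
Suz12, chr11:79992856-79993125, plus strand: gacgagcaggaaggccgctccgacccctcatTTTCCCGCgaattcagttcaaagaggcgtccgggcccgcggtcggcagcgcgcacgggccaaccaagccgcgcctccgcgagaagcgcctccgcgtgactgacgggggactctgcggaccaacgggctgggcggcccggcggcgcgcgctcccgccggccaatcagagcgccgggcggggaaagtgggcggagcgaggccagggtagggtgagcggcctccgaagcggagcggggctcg
Eed, chr7:89980957-89981126, minus strand: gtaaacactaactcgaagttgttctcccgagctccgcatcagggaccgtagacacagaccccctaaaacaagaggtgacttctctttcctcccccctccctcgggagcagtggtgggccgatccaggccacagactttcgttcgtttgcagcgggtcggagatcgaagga
Ezh1, chr11:101226444-101226613, minus strand: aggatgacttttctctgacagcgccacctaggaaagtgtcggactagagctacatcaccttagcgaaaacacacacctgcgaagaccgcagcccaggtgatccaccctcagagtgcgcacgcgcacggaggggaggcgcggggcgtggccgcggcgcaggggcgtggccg

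The Ezh2 sequence holds TTTGGCGC beginning at base 4 of the annotated transcript, and the Suz12 sequence holds TTTCCCGC beginning 219 bases before the start. Of the 8 members with a promoter in the table (9 promoters, of which Jarid2 has 2), these 2 members held a match. The Eed, Ezh1, Jarid2, Rnf2, Bmi1 and Cbx7 windows held none of these letters. Neither a match nor its absence says anything about binding, and a part of E2F in these changes was not tested. A match was present in 2.26% of all 32851 promoters and in 3.99% of the 13062 promoters of genes tested here. With the first T left off each spelling (7 letters), the same 2 members held a match, beside 16.5% of the promoters of genes tested.

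Rnf2, the ubiquitin ligase at the heart of PRC1, was at 47.2, 51.3 and 52.6 CPM at 96 h and at 49.4, 48.7 and 48.9 CPM at 0 h. The groups overlapped, and the log2 fold change was 0.04, with a 95% interval of -0.09 to 0.17 (edgeR adjusted p = 0.604; -0.21 with library size only, adjusted p = 0.0316). Ring1, its less abundant paralog, averaged 5.02 ± 0.16 CPM at 96 h and 4.63 ± 0.33 CPM at 0 h and did not pass. The log2 ratio of Rnf2 to Ring1 overlapped between the groups (difference -0.08, exact permutation p = 0.5, adjusted p = 0.5).

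Bmi1, the PCGF partner known for keeping neural stem cells dividing, was the only PRC1 member of the 4 to pass the test. It was at 133, 132 and 133 CPM at 96 h and at 172, 180 and 169 CPM at 0 h. The 96 h libraries were nearly identical to each other and all lay below the 0 h libraries, with a log2 fold change of -0.39 ± 0.05 (SE, edgeR adjusted p = 6.66e-06), and it fell by 23.6%. Bmi1 estimates were not whole numbers in any of the 6 libraries, as for Ezh2. Against Pcgf2 (also called Mel18), its closest relative, the log2 ratio averaged 2.60 ± 0.07 at 96 h and 2.82 ± 0.10 at 0 h, and the groups did not overlap (difference -0.22, exact permutation p = 0.1, the smallest possible, adjusted p = 0.25). Pcgf2 itself had a log2 fold change of -0.17 ± 0.08 and did not pass (edgeR adjusted p = 0.0906), though it did with library size only (-0.42, adjusted p = 0.00108).

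Cbx2, a CBX subunit known for compacting chromatin, was at 50.9, 48.2 and 44.7 CPM at 96 h and at 49.6, 44.1 and 49.5 CPM at 0 h. The groups covered the same range, and the log2 fold change was 0.01, with a 95% interval of -0.15 to 0.16 (edgeR adjusted p = 0.946; -0.25 with library size only, adjusted p = 0.00878). Cbx7, the CBX subunit best known from embryonic stem cells and for repression of the Cdkn2a locus, was at 54.1, 57.5 and 57.2 CPM at 96 h and at 48.9, 50.5 and 54.6 CPM at 0 h. The lowest 96 h library lay below the highest 0 h library, and the log2 fold change was 0.13, with a 95% interval of 0.00 to 0.27 (edgeR adjusted p = 0.0872). That of Cbx7 passed once 0 h replicate 3 was omitted (0.17, adjusted p = 0.0418) and under upper-quartile factors (0.21, adjusted p = 0.00999), whereas scaling by library size alone gave -0.12 (adjusted p = 0.182). The log2 ratio of Cbx7 to Cbx2 overlapped between the groups (difference 0.13, exact permutation p = 0.3, adjusted p = 0.375), as did that of Cbx7 to Cbx8 (difference -0.27, exact permutation p = 0.3, adjusted p = 0.375).

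Levels of different members were compared per length, as CPM per kb of the longest coding transcript in GENCODE M21. At 96 h, Bmi1 was highest with 37.0 ± 0.19 CPM per kb, followed by Ezh2 with 27.7 ± 1.3 and Jarid2 with 26.6 ± 0.90, whose libraries overlapped. Cbx7 (16.6 ± 0.56 CPM per kb) and Rnf2 (15.7 ± 0.89) also overlapped, and Cbx2 (12.6 ± 0.82), Eed (8.95 ± 1.1), Suz12 (7.02 ± 0.42) and Ezh1 (3.75 ± 0.29) followed in that order without overlap. At 0 h, Bmi1 (48.4 ± 1.6 CPM per kb) and Ezh2 (46.5 ± 1.1) overlapped at the top, well above Jarid2 (25.6 ± 0.68). Next came Rnf2 (15.3 ± 0.11 CPM per kb) and Cbx7 (15.2 ± 0.87), which overlapped, and then Suz12 (13.6 ± 0.54), Eed (13.4 ± 0.94) and Cbx2 (12.5 ± 0.83), of which Eed overlapped both of the others. Ezh1 was lowest with 3.09 ± 0.24 CPM per kb. These places depend on the transcript chosen. With the median coding length, Cbx7 came second at 96 h (79.2 ± 2.7 CPM per kb), while Bmi1 stayed highest and Ezh1 lowest in both groups. Ezh2 (28.9 ± 1.3 CPM per kb) then also lay below Jarid2 (49.6 ± 1.7) and Rnf2 (45.5 ± 2.6) at 96 h. At 0 h, Ezh2 (48.6 ± 1.1 CPM per kb) then lay far below Bmi1 (244 ± 7.8) and below Cbx7 (72.3 ± 4.2). For an even number of coding transcripts, the upper middle length was taken as the median. For genes with 2 coding transcripts, such as Suz12 and Pcgf3, this is the longest.

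Polycomb subunits come in families whose members replace each other in the complex, and the shares of 4 such families were compared, a view chosen after the fold changes were known. Ezh1 made up 11.9% ± 1.1 of the CPM per kb of the EZH pair at 96 h and 6.24% ± 0.56 at 0 h, and the summed level of the pair was 31.4 ± 1.1 CPM per kb at 96 h and 49.6 ± 0.88 at 0 h. Neither value overlapped between the groups, and with the median coding length the shares were 11.5% at 96 h and 6.01% at 0 h. The larger Ezh1 share reflects mainly the lower Ezh2, at 27.7 CPM per kb at 96 h and 46.5 at 0 h. Ezh1 itself was at 3.75 CPM per kb at 96 h and 3.09 at 0 h.

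Bmi1 remained the largest part of the PCGF family, with 52.7% ± 0.88 of the CPM per kb at 96 h and 59.4% ± 0.77 at 0 h, without overlap. With the median coding length its share was 82.0% ± 0.55 at 96 h and 84.8% ± 0.59 at 0 h, again without overlap, so both the share and the size of its shift depend on the transcript chosen. The sum of the 6 PCGF genes was 70.2 ± 1.0 CPM per kb at 96 h and 81.5 ± 2.0 at 0 h, and with the median length 227 ± 0.84 at 96 h and 287 ± 8.2 at 0 h. Pcgf6, of a variant PRC1 known from germ-line gene silencing, held 9.86% ± 1.2 at 96 h and 5.47% ± 0.13 at 0 h, and with the median length 3.05% ± 0.39 at 96 h and 1.55% ± 0.042 at 0 h. Its groups did not overlap under either length. Rnf2 held 86.4% ± 1.0 of the RING1 pair at 96 h and 87.1% ± 0.72 at 0 h, with overlap (94.8% at 96 h and 95.1% at 0 h with the median length). In the PHC family, whose proteins let PRC1 complexes join into larger assemblies, Phc3 held 5.78% ± 0.47 at 96 h and 7.45% ± 0.46 at 0 h (7.91% ± 0.85 at 96 h and 10.2% ± 0.60 at 0 h with the median length), without overlap under either, and the shares of Phc1 and Phc2 overlapped.

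**Figure D3:**
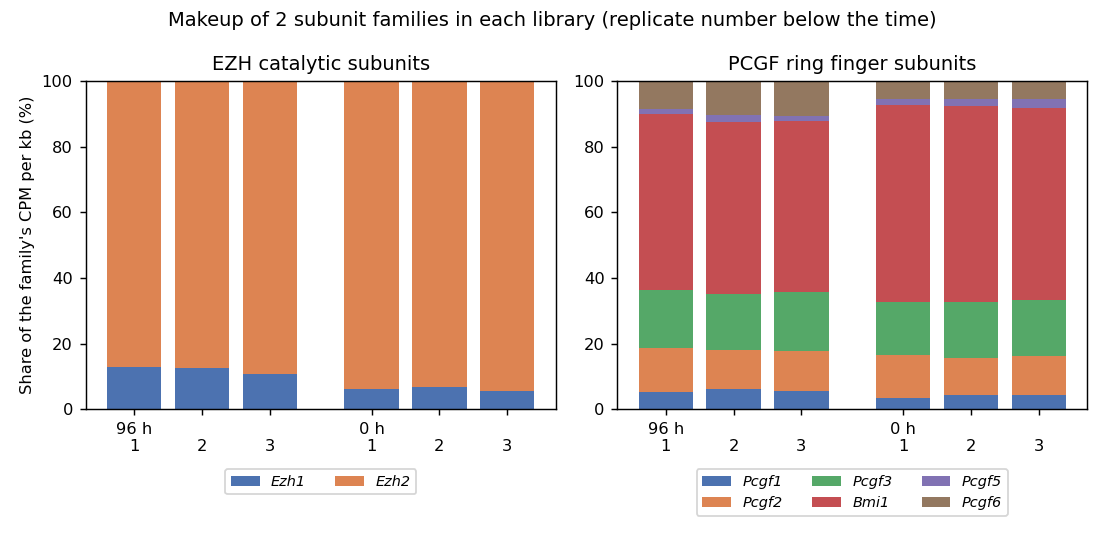
Share of each gene in the summed CPM per kb of its family (vertical axes, percent, longest coding transcript) in each of the 3 libraries at 96 h and the 3 at 0 h. The Ezh1 part is larger at 96 h (11.9% against 6.24% at 0 h) and Bmi1 is the largest part of the PCGF family in every library.

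The other subunits of the Polycomb complexes were counted from lists taken from general knowledge of these complexes. The lists hold subunits of PRC2, canonical PRC1, variant PRC1 and PR-DUB, the last of which removes ubiquitin from H2A. In 4 lists with 55 genes, 52 were tested, of which 27 fell and 8 rose, with a median log2 fold change of -0.17 (all genes tested, 28.8% lower, 28.7% higher, median 0.03). With library size only, 34 fell and 2 rose, and 5 rose without 0 h replicate 1. Some of the listed genes, such as Rbbp4 and Rbbp7, also serve other complexes, so these counts are not of Polycomb subunits alone. Of 8 tested PRC2 partners, 5 fell and 1 rose. Besides Rbbp4 and Rbbp7, the cofactors Mtf2 (log2 fold change -0.31 ± 0.07), Aebp2 (-0.28 ± 0.07) and Lcor (-0.31 ± 0.07) fell, and Lcorl was higher (0.43 ± 0.10), though by library size alone it missed the threshold (0.17, adjusted p = 0.194). Phf1 and Phf19 stayed under 3.3 CPM and did not pass, and Epop and Ezhip were too low to test.

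Of 9 tested canonical PRC1 subunits, 3 fell and 1 rose (all genes tested, 28.8% lower, 28.7% higher). Cbx6 fell to 89.8 ± 6.2 CPM at 96 h, against 144 ± 5.4 CPM at 0 h (-0.68 ± 0.06, edgeR adjusted p = 2.75e-07), and Scml4 fell (-0.82 ± 0.15). Cbx8 passed (0.41 ± 0.13, edgeR adjusted p = 0.0182), but its libraries overlapped. It missed the threshold once 96 h replicate 2 was omitted (0.23, adjusted p = 0.13), once 0 h replicate 1 was omitted (0.29, adjusted p = 0.0994) and under scaling by library size alone (0.15, adjusted p = 0.347).

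Variant PRC1 complexes use Rybp or Yaf2 in place of a CBX protein. Of the 24 genes listed for them, 15 fell and 4 rose (all genes tested, 28.8% lower, 28.7% higher). The list includes genes not particular to PRC1, such as Skp1 (log2 fold change -0.61 ± 0.05) and Wdr5 (-0.66 ± 0.08), which fell. The count is therefore not one of PRC1 alone. Bcor, a corepressor that joins Pcgf1 (log2 fold change -0.90 ± 0.06), and the deubiquitinase Usp7 (-0.72 ± 0.05) fell, and Pcgf6 (0.64 ± 0.12) and Auts2 (0.28 ± 0.05), a neuronal partner of Pcgf3 and Pcgf5 complexes, rose. Auts2 missed the threshold by library size alone (0.03, adjusted p = 0.721). In PR-DUB, the complex that removes ubiquitin from H2A, 4 of 11 fell, with Hcfc1 (-0.77 ± 0.06) and Foxk2 (-0.32 ± 0.05), and 2 rose, with Ogt (0.64 ± 0.08) and Foxk1 (0.25 ± 0.05, and 0.00 with library size only, adjusted p = 0.99). The number of PR-DUB genes that passed, 6 of 11, is close to the share of all genes tested that did, 57.4%.

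Enzymes that act against PRC2 were read beside it. Kdm6b (also called Jmjd3), which removes the methyl groups PRC2 adds, was at 126, 134 and 132 CPM at 96 h and at 88.9, 88.7 and 104 CPM at 0 h, without overlap (log2 fold change 0.48 ± 0.06, edgeR adjusted p = 2.45e-05). Kdm6a, the other such enzyme in the list, had a log2 fold change of 0.15 ± 0.09 and did not pass (edgeR adjusted p = 0.173; -0.10 with library size only, and past the threshold at 0.23 with upper-quartile factors, adjusted p = 0.0421). Of the 18 genes of this list, which also holds the COMPASS complexes that methylate lysine 4 of histone H3, 12 fell and 2 rose, with a median log2 fold change of -0.20 (all genes tested, 28.8% lower, 28.7% higher, median 0.03). Paxip1, a subunit of the Kmt2c and Kmt2d complexes, fell (-1.34 ± 0.06), as did Psip1 (-0.58 ± 0.05), and Rbbp5 rose (0.29 ± 0.06), though by library size alone it stood at 0.04 (adjusted p = 0.701).

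**Figure D4:**
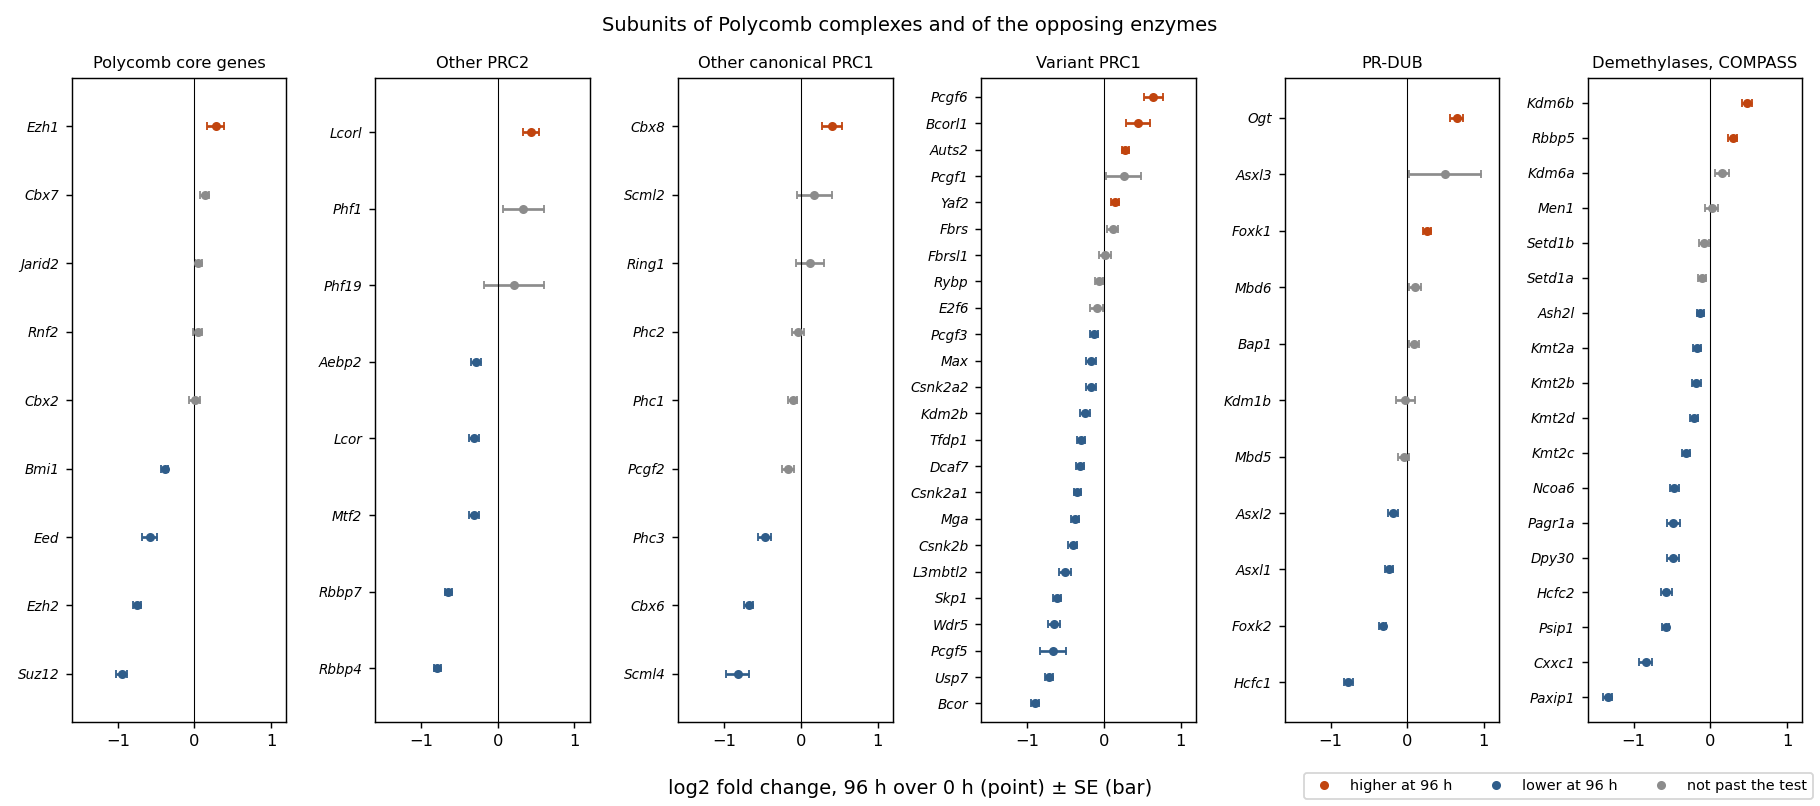
Log2 fold change (96 h over 0 h, horizontal axes) with its SE for the tested genes of 6 lists, coloured by whether they passed the test. In every list both directions occur, and the largest falls of the PRC2 lists are Suz12 (-0.95), Rbbp4 (-0.79) and Ezh2 (-0.75).

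Developmental genes that Polycomb complexes are known to hold silent, for instance in mouse embryonic stem cells, were read beside the complexes, though no histone mark was measured here. Of 61 such genes, 36 were too low to test, with at most 28 counts over the 3 libraries at 96 h and 45 at 0 h, and 4 of them had 0 counts throughout. Of the 25 that were tested, 7 fell and 7 rose, with a median log2 fold change of 0.18 (all genes tested, 28.8% lower, 28.7% higher, median 0.03). The shares called are close to those of all genes, and a gene that passed the filter through 1 group alone had to differ. Lhx2 (76 counts over the 96 h libraries, 15 over the 0 h libraries) passed it only through the 96 h group, as did Ccnd2. Zic1 (19 counts at 96 h, 49 at 0 h) passed it only through the 0 h group. The median of the 25 is therefore not read as a shift of the list. With a filter of 1 CPM in 3 libraries, 4 rose and 7 fell. Phox2a, Hand2 and Isl1, which fell, and Gata3, which did not pass, are also on the sympathetic neuroblastoma list. Hand2 averaged 381 CPM at 0 h, so not every gene of the target list was silent in these cells. Tbx2 (log2 fold change -1.31 ± 0.06) and Phox2a (-0.47 ± 0.06), both transcription factors of the sympathetic lineage or neural crest, fell. Pax6, a factor of neural progenitors, rose to 8.53 ± 1.3 CPM at 96 h, against 4.61 ± 0.86 CPM at 0 h (0.89 ± 0.19). Ccnd2, a cyclin of the G1 phase, summed to 44 counts over the 96 h libraries and to 3 over the 0 h libraries, a gene that passed the filter only through the 96 h group and so had to differ. As a description, its depth-scaled ratio was 18.2 (exact 95% conditional binomial interval 5.82 to 91.4, for counting error only). The cell cycle inhibitor locus Cdkn2a, singled out after its values were seen as the best known PRC1 target, was lower (-0.31 ± 0.10, edgeR adjusted p = 0.0162), but missed the threshold once 96 h replicate 2 (-0.21, adjusted p = 0.0821) or 0 h replicate 1 (-0.28, adjusted p = 0.0593) was omitted and under upper-quartile factors (-0.23, adjusted p = 0.0606). Its neighbour Cdkn2b had 0 counts in all libraries.

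Genes of dividing cells moved in the same direction as the PRC2 core. All 8 genes of a short list, the Mcm2 to Mcm7 helicase subunits, Pcna and Mki67, fell, with a median log2 fold change of -0.90. Among them were Pcna (-1.37 ± 0.05) and Mcm6 (-0.96 ± 0.05). Over all genes tested, 28.8% were lower and the median was 0.03. The summed level of the 8 genes was 1064 to 1142 CPM at 96 h and 2113 to 2228 CPM at 0 h. Their part in the falls of Ezh2, Suz12 and Eed was not tested.

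The genes whose profiles over the 6 libraries lay nearest to those of the EZH pair were found by the distance between centred log2 CPM values among 9441 genes with a mean of at least 5 CPM. Nearest to Ezh2 were Cbfb, a partner subunit of RUNX factors (distance 0.0462, log2 fold change -0.75 ± 0.06), Rufy1, an endosomal protein (0.0579, -0.74 ± 0.07), and Prpf4b, a kinase of pre-mRNA splicing (0.0671, -0.78 ± 0.05). Nearest to Ezh1 were Zscan25, a zinc finger gene (distance 0.0721, log2 fold change 0.26 ± 0.09), Fastk (0.0858, 0.29 ± 0.10) and Lgi1, a secreted neuronal protein (0.0884, 0.29 ± 0.16). With 6 libraries in 2 groups, such a distance mostly reads the size of the change between the groups.

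The scaling between libraries set how far the members as a whole appeared to move. Scaling by library size only lowered the median of all genes by 0.25 on the log2 scale relative to TMM, gave 29.2% of calls as higher in place of 49.9%, and counted 7 members as lower and none as higher (edgeR). DESeq2 size factors kept 4 lower and 1 higher, and upper-quartile factors gave 4 lower and 3 higher. Suz12, Ezh2, Eed and Bmi1 were lower under all 4 scalings. Differences between members do not depend on the scaling, so the distance between Suz12 and Rnf2, for instance, is nearly the same under each. Without Gm26917, mitochondrial and ribosomal RNA genes, the counts were again 4 lower and 1 higher.

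**Figure D5:**
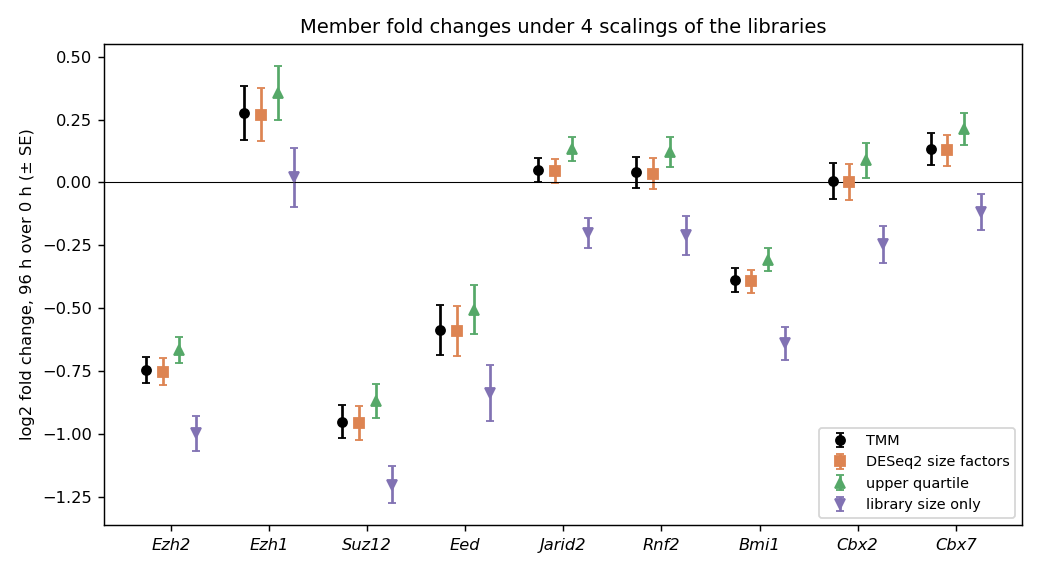
Log2 fold change (96 h over 0 h, vertical axis) with its SE for each of the 9 Polycomb genes (horizontal axis) under 4 scalings of the libraries in edgeR. The whole pattern shifts down with library size only, where Jarid2 (-0.20), Rnf2 (-0.21), Cbx2 (-0.25) and Cbx7 (-0.12) fall below 0, while the 4 lowest genes stay below 0 throughout.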

How the data were processed

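RNA was measured in 6 libraries of N2A-A5 cells, 3 at 96 h and 3 at 0 h. The labels' protocols name ribosomal depletion and a stranded Takara SMARTer kit for small inputs, followed by paired-end sequencing. The submitters' processing notes list Salmon 1.10.1, DESeq2 1.52.0, FastQC 0.12.1 and build mm39. Not given in the sources used here are Salmon's annotation, its strand setting and how transcripts became genes. The authors made estimated counts per gene symbol (Salmon, per the submitters' processing notes) and deposited them without normalisation. Genes that share or overlap sequence can have their reads split.

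Counts were rounded to whole numbers and fitted on the whole table in edgeR 4.0.16 (R 4.3.3): filterByExpr, TMM scaling, the quasi-likelihood F test over the groups, and Benjamini-Hochberg adjustment over all 13705 genes tested, at 0.05. The script was tested on simulated data. The SE is the size of the log2 fold change divided by the square root of F. For ratios, log2 CPM (prior count 2) were subtracted and the groups compared by exact permutation, two-sided, for which 0.1 is the smallest p. Replicate libraries differed by more than sampling noise (chi-square per degree of freedom 6.32 to 12.9). A few list genes are not reported here and were taken out of the lists. The members and lists were chosen with earlier results of these data known. Named genes are all members, the ratio partners, the 2 higher and 2 lower genes of each other list with the smallest adjusted p, and the nearest profiles of Ezh1 and Ezh2; others named were chosen after their values were seen. Lengths and overlaps came from GENCODE M21 (GRCm38) and promoters from RefSeq (GRCm38.p6), matched by symbol. Alternatives were other scalings and filters, DESeq2 1.42.0, limma-voom (limma 3.58.1), an adjusted p of 0.01, removal of abundant noncoding genes, a replicate block and leaving out each library.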

Additional observations from a re-analysis of the deposited data

How the results depend on the processing

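The falls of Suz12, Ezh2, Eed and Bmi1 kept their direction and passed the threshold under every alternative run. The call of Ezh1 did not: its log2 fold change was 0.0201 with library size only, 0.24 without a filter, 0.27 with the DESeq2 Wald test and 0.27 with limma-voom, none past the threshold, 0.27 at an adjusted p of 0.01, and 0.215 to 0.331 when a library was left out. The number of members higher at 96 h was accordingly 0 with library size only, without a filter, with DESeq2, with limma-voom and at an adjusted p of 0.01, 3 with upper-quartile factors (Jarid2 at 0.13 and Cbx7 at 0.21 added), and 0 to 1 when a library was left out. With library size only, 7 members were lower, and Jarid2 (-0.20), Rnf2 (-0.21), Cbx2 (-0.25), Cbx7 (-0.12), Kdm6a (-0.10) and Ring1 (-0.13) turned below 0. The other Polycomb subunits then numbered 2 higher in place of 8 (5 to 7 when a library was left out), and the demethylase and COMPASS genes 1 higher. Cbx2, close to 0 throughout, was at -0.0298 without a filter and at -0.0568 to 0.0488 when a library was left out, Rnf2 at -0.0001 (without 96 h replicate 3) to 0.0737, and Cbx7 at 0.0907 to 0.17, past the threshold only without 0 h replicate 3. A filter of 1 CPM in 3 libraries left 4 Polycomb target genes higher in place of 7. The replicate numbers are not known to pair the samples: deviations of same-numbered libraries correlated at -0.014, 0.014 and -0.005. With the replicate block, 3854 genes were higher and 3858 lower in all, 4 members were lower and 1 higher (Ezh1 0.28, adjusted p = 0.0391), and no call of a member changed. Transcript length and the shorter E2F spellings were alternatives chosen after seeing the data. All 5 ratios moved by less than the replicate spread. Apart from scaling, the causes of these differences were not tested. Ezh1 and Eed had the fewest counts among the members, and the effect of depth was not tested.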
